A study of Homo sapiens with 6 samples.

Results

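The oxygen sensing system of the cell was followed at the RNA level in H226 cells after transfection of an antisense oligonucleotide (ASO) against the lncRNA *SWINGN*. H226 is an established human line that the study describes as lung squamous carcinoma. The genes described are 8 of the 17222 gene names in the count table, chosen by name: the HIF subunits *HIF1A*, *EPAS1* and *ARNT*, the prolyl hydroxylases *EGLN1*, *EGLN2* and *EGLN3*, the asparaginyl hydroxylase *HIF1AN*, and *VHL*. The study compared 3 libraries of cells given the control oligonucleotide (ASO_CTRL) with 3 libraries of cells given ASO_LINC#3 (ASO_LINC), all of them transient transfections collected after 48 h. Both conditions share the cell line and the transfection, the knockdown rests on 1 oligonucleotide sequence, and no value of *SWINGN* was analysed here. The labels of all 6 libraries name H226, whereas the study's sequencing methods speak of BJ fibroblasts at this step and a legend of the same study names H226, and the labels were followed. The labels do not say whether libraries of a condition came from separate cultures, so p-values measure only the spread between these libraries, which may be technical.

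HIF is a transcription factor made of an oxygen-labile alpha subunit, HIF-1alpha (*HIF1A*) or HIF-2alpha (*EPAS1*), and a stable partner, ARNT. When oxygen is present, the EGLN enzymes hydroxylate prolines of the alpha subunit, the VHL protein recognises them and directs the subunit to the proteasome, and the product of *HIF1AN* hydroxylates an asparagine that otherwise contacts coactivators. When oxygen is short, the alpha subunit is stabilised and activates genes such as *VEGFA*. Part of the sensor is itself among these genes: *EGLN3* and *EGLN1* are known HIF targets, whereas *EGLN2* and *HIF1AN* are not known as such. HIF alpha subunits are controlled mainly as proteins, which these libraries do not measure.

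The reads counted on genes ranged from 3686828 to 10546786 per library, the fewest being in ASO_LINC replicate 3. This library also stood apart from the other libraries of its condition, with a chi-square per degree of freedom of 13 and 14 against them, whereas replicates 1 and 2 gave 2.50 and pairs of control libraries by 6.94 to 11.9. Levels are given in CPM, read counts scaled to a common depth with TMM factors, and 1 read was worth 0.0954 to 0.271 CPM. Of 14660 genes tested with edgeR's quasi-likelihood test, 1106 passed an adjusted p-value of 0.01 and a log2 fold change beyond 0.5, which is 7.54% of them, 720 higher (4.91%) and 386 lower (2.63%) in ASO_LINC. This count ran from 359, without ASO_CTRL replicate 3, to 2616, without ASO_LINC replicate 3, over the fits that left out 1 library (493, 505, 425 and 531 without the others), and was 656 with a replicate block, so the background shares depend on the libraries in the same way. The median log2 fold change over all tested genes was −0.003. Of 10 squamous markers, *KRT5* had 103 ± 12.3 CPM (SD, n = 3) in ASO_CTRL, *KRT6A* and *CLCA2* had 0.0318 ± 0.0551 and 0.804 ± 0.213 CPM, and the other 7 were not analysed here, *TP63* and *SOX2* among them. All 8 mesothelial and simple epithelial markers were measured in ASO_CTRL, from *MSLN* at 29.1 ± 2.05 CPM to *KRT18* at 5086 ± 152 CPM, and of these *CALB2*, which encodes calretinin, fell by 1.97 on the log2 scale (edgeR quasi-likelihood test, adjusted p = 0.000195). Of 6 blood and endothelial markers, *CD68* was measured, at 1.37 ± 0.453 CPM in ASO_CTRL and 4.13 ± 2.07 CPM in ASO_LINC. Summed over the measured genes of a list, the libraries ranged from 95.08 to 118.1 CPM in ASO_CTRL and from 65.54 to 79.98 CPM in ASO_LINC for the squamous markers, and from 12405 to 13475 and from 7311 to 12758 CPM for the mesothelial and simple epithelial markers. The lower squamous sum is that of *KRT5*, at 69.0 ± 7.87 CPM in ASO_LINC. *KRT6A* and *CLCA2*, below the filter of the test, were higher there, at 1.33 ± 0.638 and 1.44 ± 0.535 CPM. The part of all these marker lists in the results below was not tested, and in bulk RNA fewer cells of a type cannot be told apart from less RNA per cell.

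The core letters of the hypoxia response element, to which HIF binds, are ACGTG or GCGTG. The promoter windows of the 3 prolyl hydroxylases are shown because *EGLN1* and *EGLN3* are known HIF targets and *EGLN2* is not. Each window runs 5′ to 3′ from 250 bases before to 50 bases after the gene's start as RefSeq places it in GRCh38.p14, a build other than the hg19 of the alignment. Capitals mark a match to either core on either strand.
*EGLN1* (chr1:231422238-231422537, minus strand): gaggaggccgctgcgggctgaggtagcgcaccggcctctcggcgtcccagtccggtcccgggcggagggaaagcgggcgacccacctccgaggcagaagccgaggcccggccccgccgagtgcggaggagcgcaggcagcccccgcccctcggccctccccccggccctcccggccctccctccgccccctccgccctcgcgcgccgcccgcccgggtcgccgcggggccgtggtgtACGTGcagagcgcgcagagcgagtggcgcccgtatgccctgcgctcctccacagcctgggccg
*EGLN2* (chr19:40798941-40799240, plus strand): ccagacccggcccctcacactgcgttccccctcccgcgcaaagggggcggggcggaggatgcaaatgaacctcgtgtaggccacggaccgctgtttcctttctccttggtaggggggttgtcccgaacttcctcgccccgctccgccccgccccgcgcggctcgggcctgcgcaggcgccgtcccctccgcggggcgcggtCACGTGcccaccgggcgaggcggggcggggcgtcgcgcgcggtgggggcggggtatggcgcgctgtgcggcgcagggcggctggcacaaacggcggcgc
*EGLN3* (chr14:33951025-33951324, minus strand): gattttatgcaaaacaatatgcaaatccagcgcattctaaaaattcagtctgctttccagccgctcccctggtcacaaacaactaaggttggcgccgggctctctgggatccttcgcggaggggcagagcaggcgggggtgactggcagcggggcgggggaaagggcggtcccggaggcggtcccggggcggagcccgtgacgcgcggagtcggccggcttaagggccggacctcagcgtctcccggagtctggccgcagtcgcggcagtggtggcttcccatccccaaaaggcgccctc
The *EGLN1* window held ACGTG once, beginning 13 bases before the start. The first of the 2 windows of *EGLN2* held ACGTG on both strands, where the matches overlap in the letters CACGTG from 49 bases before the start, and its second window held no match. Neither core was found in the *EGLN3* window, which says only that these letters are not in these 300 bases. Among the others, *HIF1A* held GCGTG once in the first of its 2 windows, 204 bases before the start, and *EPAS1* held it once, 117 bases before the start, whereas the windows of *ARNT* and *HIF1AN* had no match. In all, 7 of the 8 genes matched an entry, in 9 windows, and *VHL* did not. A match was thus found in 4 of the 9 windows (44.4%), against 48.4% of all 35116 windows of this length, of which 21.4% held ACGTG and 36.5% GCGTG. For a list of 36 textbook HIF targets, 31 of which had an entry, 39 of 50 windows (78.0%) held a match. Both cores contain CG, and the windows compared were not matched for GC content. These shares are descriptions of sequence and were not tested.

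*EGLN3* was the 1 gene of the 8 past both thresholds, against 7.54% of all tested genes. It passed the filter on low counts, 1.59 CPM in at least 3 libraries, through the ASO_LINC libraries alone, as did 175 of all tested genes, 81 of which were called higher, so the count of 1 is a description. The other 7 genes reached that level in all 6 libraries. Its level rose 5.70-fold in ASO_LINC (fitted fold), while the fitted folds of the other 7 genes lay between 0.838 and 1.42. *EPAS1* and *EGLN1* were higher in every ASO_LINC library but not past the adjusted p-value, and *HIF1A*, *ARNT*, *EGLN2*, *HIF1AN* and *VHL* overlapped between the conditions. The conditions did not overlap in 3 of the 8 genes (*EGLN3*, *EPAS1* and *EGLN1*), or 37.5%, against 36.1% of all tested genes, so such a count is near the background. At an unadjusted p-value below 0.05 in edgeR the same 3 genes were higher, against 17.1% of all tested genes, and 0 of the 8 were lower, against 15.3%. The median log2 fold change of the 8 genes was 0.27.

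**Figure D1:**
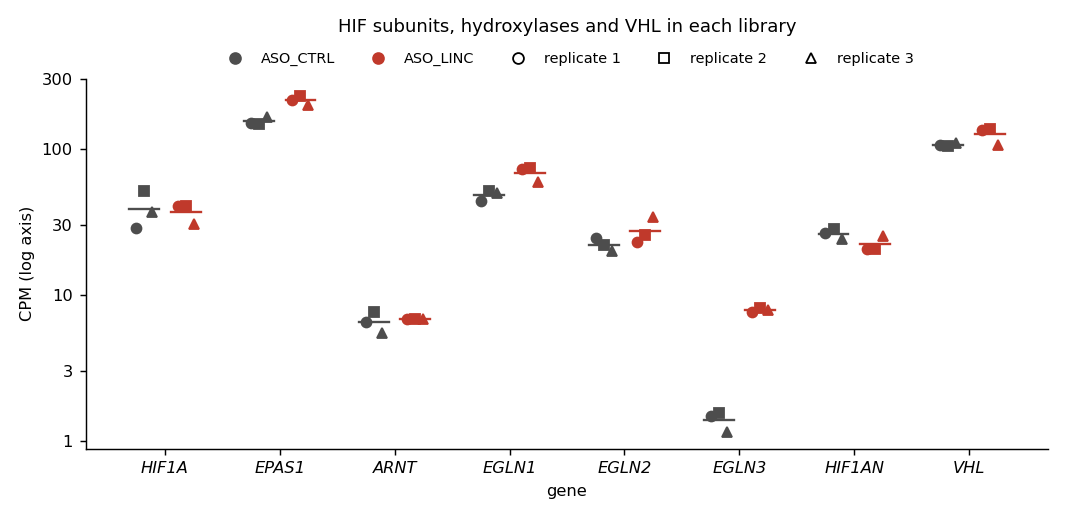
CPM (y axis, log scale) of the 8 genes (x axis) in each library, ASO_CTRL in grey and ASO_LINC in red, with a bar at each mean and 1 marker shape per replicate number. *EGLN3* stands lowest in ASO_CTRL, at 1.15 to 1.55 CPM, and lies between 7.64 and 8.04 CPM in ASO_LINC, while the groups of *HIF1A*, *ARNT*, *EGLN2*, *HIF1AN* and *VHL* overlap.

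*EGLN3* encodes PHD3, a prolyl hydroxylase known for its induction when oxygen is low. In the annotation used, whose span includes alternative transcripts, it occupies positions 34393433 to 34931980 of chromosome 14 (GRCh37, minus strand). The controls, in the order of their replicate numbers, held 11, 9 and 12 reads of the gene, and the ASO_LINC libraries 52, 47 and 29. Scaled by depth these were 1.48, 1.55 and 1.15 CPM in the controls and 7.64, 8.04 and 7.86 CPM after the knockdown, so every ASO_LINC library lay far above every control, and the shallow replicate 3 was level with the others. The means were 1.39 ± 0.217 and 7.85 ± 0.201 CPM (SD, n = 3 in each condition). The log2 fold change was 2.51 (standard error 0.26, 95% interval 1.95 to 3.08, edgeR quasi-likelihood test, adjusted p = 0.000158). This was the 63rd largest increase among the 14660 tested genes. The fits without 1 library each gave log2 fold changes from 2.36 to 2.59, all past both thresholds. As the gene entered the main test through the ASO_LINC libraries alone, its adjusted p-value, rank and calls are a description. In the fit without a filter the log2 fold change was 2.52 (edgeR quasi-likelihood test, adjusted p = 0.000136). The ratio of read rates, from the summed reads of each condition, was 5.81 (95% counting interval 3.92 to 8.84). This interval leaves out the spread between libraries. With a filter of at least 10 reads in every library the gene was not tested, since ASO_CTRL replicate 2 had 9.

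*EGLN1* encodes PHD2, the main prolyl hydroxylase of HIF-1alpha in most cells, and lies on chromosome 1 of GRCh37 from 231499497 to 231558033. Its level was 43.9, 51.6 and 49.3 CPM in ASO_CTRL and 72.3, 73.8 and 59.1 CPM in ASO_LINC. All 3 knockdown libraries exceeded the highest control, replicate 3 by the least. The log2 fold change was 0.51 (standard error 0.14, 95% interval 0.19 to 0.82), just beyond the fold bound, and the edgeR quasi-likelihood test gave an adjusted p of 0.0326. Without ASO_LINC replicate 3 it was 0.60 (adjusted p = 0.00228 from the same test) and past both thresholds. Over all alternatives the adjusted p-value of *EGLN1* ranged from 0.00228 to 0.131. Of its 5381 exonic bases, 3004 also belong to a second gene of the annotation on the same strand. Reads there could be split or dropped by the counting if the authors' annotation also held that gene.

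*EGLN2* encodes PHD1, the prolyl hydroxylase known for its response to estrogen rather than to low oxygen, and lies on chromosome 19 from 41304901 to 41314339. It had 24.2, 21.9 and 20.0 CPM in ASO_CTRL and 22.9, 25.7 and 33.9 CPM in ASO_LINC. The groups overlapped, and the highest value came from ASO_LINC replicate 3, the library in which *EGLN1* was lowest of its group. Its log2 fold change was 0.31 (standard error 0.18, 95% interval −0.09 to 0.70, edgeR quasi-likelihood test, adjusted p = 0.272). The interval includes both 0 and a rise as large as that of *EGLN1*. Of the exonic bases of *EGLN2*, 30.6% are shared with other annotated genes, mainly the readthrough gene *RAB4B-EGLN2*.

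Among the reads on the 3 prolyl hydroxylases, *EGLN3* took 2.13%, 2.06% and 1.62% in the ASO_CTRL libraries and 7.43%, 7.48% and 7.80% in the ASO_LINC libraries. The 95% exact binomial intervals, which cover counting error only, reached up to 3.88% in the controls and down to 5.28% in ASO_LINC, so they did not meet. *EGLN1* took the largest share throughout, from 58.6% to 70.3%, and *EGLN2* from 22.3% to 34.8%, and for both genes the ranges of the conditions overlapped. These are shares of reads and were not corrected for length.

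**Figure D2:**
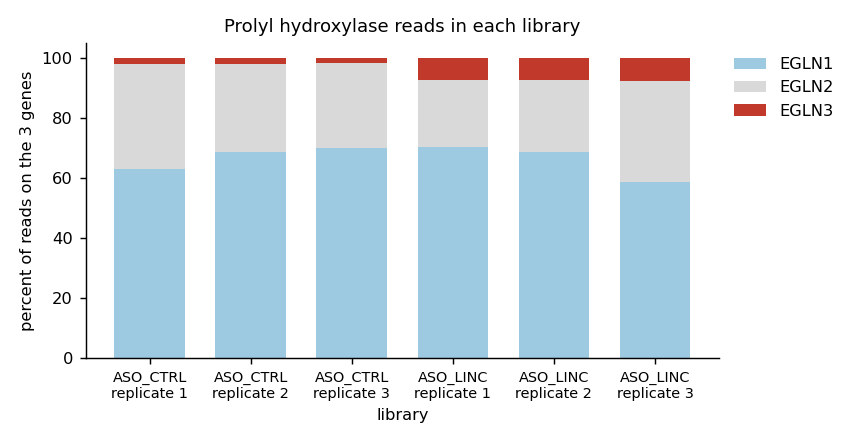
Percent of the reads on *EGLN1*, *EGLN2* and *EGLN3* (y axis) that fell on each gene, as stacked bars for each library (x axis). The red *EGLN3* segment covers 1.62% to 2.13% in ASO_CTRL and 7.43% to 7.80% in ASO_LINC.

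Whether paralogs moved differently was asked from the log2 ratio of their CPM within a library, for 4 ratios, with an exact two-sided permutation test whose smallest possible p-value at 3 against 3 is 0.1. The ratio of *EGLN3* to *EGLN2* was −3.73 ± 0.13 in ASO_CTRL and −1.75 ± 0.28 in ASO_LINC (SD, n = 3 in each), a difference of 1.98 with no overlap (exact permutation p = 0.1, 0.133 adjusted over the 4 ratios). That of *EGLN3* to *EGLN1* differed by 1.78, from −4.85 ± 0.24 to −3.07 ± 0.18, also with no overlap (exact permutation p = 0.1, adjusted 0.133). For *EGLN1* to *EGLN2* the values were 0.85, 1.23 and 1.29 in ASO_CTRL and 1.64, 1.51 and 0.80 in ASO_LINC, a difference of 0.20 (exact permutation p = 0.6, adjusted 0.6). In this last ratio ASO_LINC replicate 3 lay below all controls and the other 2 above them, and without it the difference was 0.46. At 3 against 3 libraries this test cannot pass 0.05 for any of the ratios, and the overlap of the values is given as a description.

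**Figure D3:**
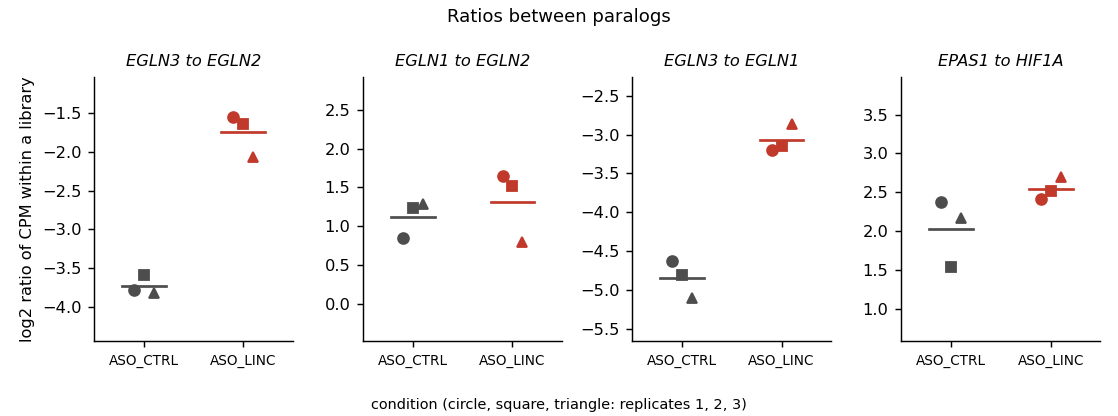
Log2 ratio of the CPM of 2 paralogs within each library (y axis, the same span in each panel) for ASO_CTRL and ASO_LINC (x axis), with a bar at each mean. The conditions separate by 1.98 and 1.78 in the panels with *EGLN3*, and overlap in the panel of *EGLN1* to *EGLN2*.

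*EPAS1*, on chromosome 2 of GRCh37 from 46520806 to 46613836, encodes HIF-2alpha. Its level was 150, 148 and 165 CPM in ASO_CTRL and 216, 231 and 198 CPM in ASO_LINC, without overlap. The log2 fold change was 0.48 (standard error 0.12, 95% interval 0.21 to 0.75, edgeR quasi-likelihood test, adjusted p = 0.0223), short of both thresholds. Without ASO_LINC replicate 3 it was 0.53 with an adjusted p of 0.00267 from the same test, past both, and over all alternatives the adjusted p-value ranged from 0.00267 to 0.0996.

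*HIF1A*, on chromosome 14 from 62162231 to 62214977, encodes HIF-1alpha. It had 28.6, 50.9 and 36.6 CPM in ASO_CTRL and 40.3, 40.2 and 30.4 CPM in ASO_LINC, so that all 3 ASO_LINC libraries fell within the range of the controls. The log2 fold change was −0.05 (standard error 0.21, 95% interval −0.52 to 0.42, edgeR quasi-likelihood test, adjusted p = 0.894). Its sign turned when ASO_CTRL replicate 2, the highest library, or ASO_LINC replicate 3 was left out, to 0.191 and 0.068. Exons of *HIF1A* share 580 of 5151 bases with other annotated genes, 432 of them with the antisense genes *HIF1A-AS1* and *HIF1A-AS3*, and whether reads were counted by strand is not given in the sources used here.

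The log2 ratio of *EPAS1* to *HIF1A* was 2.38, 1.53 and 2.16 in ASO_CTRL and 2.41, 2.51 and 2.69 in ASO_LINC. All 3 knockdown libraries were above the controls, the lowest by a small margin over ASO_CTRL replicate 1, and the difference was 0.52 (exact permutation p = 0.1, adjusted 0.133 over the 4 ratios). Without ASO_CTRL replicate 2 it was 0.27. *EPAS1* took 74.4% to 84.0% of the reads on the 2 alpha subunits in ASO_CTRL and 84.3% to 86.7% in ASO_LINC.

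*ARNT*, on chromosome 1 from 150782189 to 150849184, encodes the shared partner of both alpha subunits and had the lowest counts after *EGLN3*, from 25 to 57 reads per library. It stood at 6.47, 7.57 and 5.44 CPM in ASO_CTRL and at 6.76, 6.85 and 6.78 CPM in ASO_LINC, within the range of the controls. The log2 fold change of 0.08 (95% interval −0.39 to 0.56, standard error 0.22, edgeR quasi-likelihood test, adjusted p = 0.827) has an interval that admits a change as large as that of *EPAS1*. Without ASO_CTRL replicate 3 it was −0.044.

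*HIF1AN* encodes FIH, the asparaginyl hydroxylase, and lies on chromosome 10 from 102288829 to 102319755. It had 26.4, 28.2 and 24.0 CPM in ASO_CTRL and 20.4, 20.5 and 25.2 CPM in ASO_LINC, of which replicates 1 and 2 were below all controls and replicate 3 within them. Its log2 fold change was −0.26 (standard error 0.16, 95% interval −0.61 to 0.10, edgeR quasi-likelihood test, adjusted p = 0.299). The gene shares 325 exonic bases with *NDUFB8* on the opposite strand, which had a log2 fold change of −0.51 (adjusted p = 0.0194 from the same test).

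*VHL*, on chromosome 3 from 10183462 to 10195351, encodes the substrate receptor of the ligase that removes hydroxylated HIF alpha subunits. Its level was 106, 105 and 109 CPM in ASO_CTRL and 134, 136 and 106 CPM in ASO_LINC. Replicates 1 and 2 of the knockdown were above the controls and replicate 3 was among them. The log2 fold change of 0.24 (standard error 0.14, 95% interval −0.06 to 0.53) was not past the thresholds (edgeR quasi-likelihood test, adjusted p = 0.255). Of its 5001 exonic bases, 1173 are shared with an lncRNA gene on the opposite strand.

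**Figure D4:**
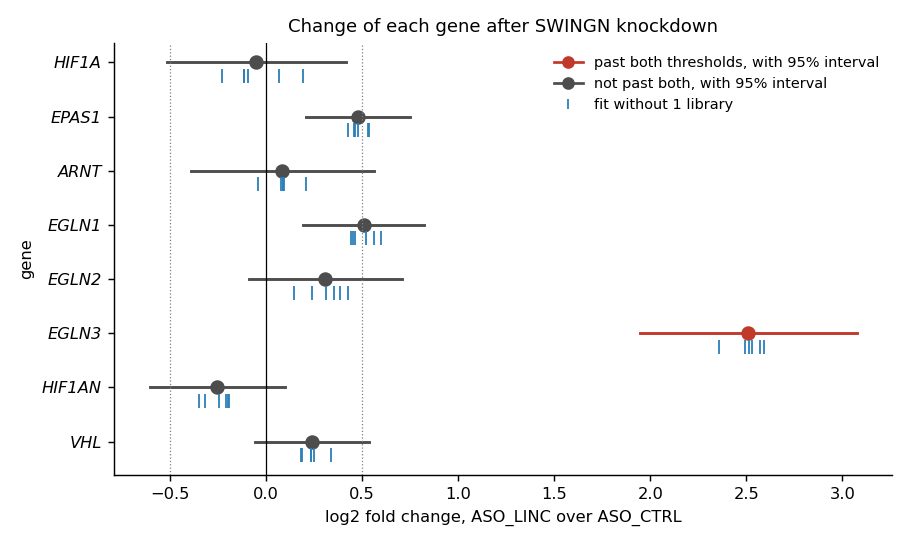
Log2 fold change of ASO_LINC over ASO_CTRL (x axis) for each gene (y axis) as a point with its 95% interval, red where past both thresholds. Blue ticks are the fits without 1 library each and dotted lines mark the bound of 0.5: *EGLN3* lies at 2.51, apart from the other 7, whose points lie between −0.26 and 0.51.

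To set the genes beside each other, CPM were divided by the exonic length of each gene in the annotation. Per kilobase, the order of the levels in ASO_CTRL was *VHL* (21.3 ± 0.366), *EPAS1* (21.2 ± 1.28), *EGLN1* (8.97 ± 0.736), *HIF1A* (7.51 ± 2.20), *EGLN2* (3.35 ± 0.321), *HIF1AN* (1.89 ± 0.151), *ARNT* (1.01 ± 0.166) and *EGLN3* (0.189 ± 0.0294 CPM per kilobase, SD, n = 3). The neighbours *VHL* and *EPAS1*, and *EGLN1* and *HIF1A*, overlapped between libraries, and the other neighbours did not. In ASO_LINC *EPAS1* was first, at 29.5 ± 2.24 CPM per kilobase, and *EGLN3* at 1.07 ± 0.0273 overlapped with *ARNT* at 1.05 ± 0.00695, the lowest 2 of the order. First-strand synthesis used dT oligos, and if reads gather at the 3′ end, division by the whole exonic length understates long genes such as *HIF1AN* at 13.89 kb. The length joins the exons of all annotated transcripts, 7.36 kb for *EGLN3*, and understates a gene if some are not expressed. Exons shared with other genes made up 55.8% of exonic bases in *EGLN1*, 30.6% in *EGLN2* and 23.5% in *VHL*. Reads there may also be lost if the authors' annotation held those genes. The order is therefore a description.

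The 3 genes with the pattern most like that of *EGLN3*, by root mean square difference in log2 change from the control mean over the 6 libraries, were *BNIP3P1* (0.11), *DDIT4* (0.17) and *CEACAM1* (0.17), out of 10221 genes with a mean of at least 50 reads. *BNIP3P1* is a pseudogene of the HIF target *BNIP3*, from which it may take reads. *DDIT4*, itself in the list of HIF targets below, encodes an inhibitor of mTOR signaling, and *CEACAM1* an adhesion molecule. The changes of these 3 genes in the 3 ASO_LINC libraries ran from 2.03 to 2.30 on the log2 scale. Those of *EGLN3* were 2.24, 2.31 and 2.28 on the same scale, which uses a prior count of 2 and so lies below the fitted value.

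Antisense genes at 2 of the loci were also counted. Their ratios of rates use the summed reads of each condition, and the counting intervals leave out the spread between libraries. *HIF1A-AS2* had 2, 1 and 2 reads in ASO_CTRL and 14, 12 and 7 in ASO_LINC, a ratio of rates of 9.58 (95% counting interval 3.72 to 31.4). It passed the filter through the ASO_LINC libraries alone, so its call (edgeR quasi-likelihood test, adjusted p = 0.00123), which was lost without ASO_CTRL replicate 3 or ASO_LINC replicate 1, is a description. *EGLN3-AS1* had 0, 0 and 1 reads in ASO_CTRL and 14, 6 and 3 in ASO_LINC, a ratio of 33.4 (95% counting interval 5.42 to 1380), and was below the filter of the test. *HIF1A-AS1* had 28 reads in all controls and 19 in all ASO_LINC libraries, a ratio of 0.985 (0.520 to 1.83). Without known strand, reads of a gene and its antisense partner cannot be told apart. No exonic base of *EGLN3* is shared with *EGLN3-AS1* in the annotation, whereas *HIF1A-AS2* is a name that this annotation does not use.

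In the list of subunits and enzymes that work with VHL, 1 of 8 tested genes passed, against 7.54% of all tested genes, and the median was 0.13. The gene was *UBE2D1*, a ubiquitin-conjugating enzyme, which rose by 0.73 on the log2 scale (edgeR quasi-likelihood test, adjusted p = 0.00776). A count this small is a description. The elongin gene *TCEB2* and *RBX1*, the ring subunit, had log2 fold changes of −0.39 and −0.44, and *UBE2D3* of 0.34, none past the thresholds. Leaving out any 1 library other than ASO_LINC replicate 3 took the count of this list to 0, and leaving out that replicate raised it to 3. Of 5 tested paralogs and partners of the HIF subunits, edgeR called 0, against 7.54% of all tested genes, limma-voom 0 and DESeq2 1. At an unadjusted p-value below 0.05 in edgeR 1 was higher, against 17.1% of all tested genes, and 2 were lower, against 15.3%. The higher gene was *AHR* (log2 fold change 0.68), which encodes the dioxin receptor and partners with ARNT. The lower genes were *SIM2* (−0.65) and *ARNT2* (−0.57). *NPAS2* had 0.22, and the median of the list was 0.14.

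Of 19 tested regulators of HIF or of its hydroxylases, 1 was called, against 7.54% of all tested genes, and the median was −0.09. The called gene was *HIF1A-AS2*, which passed the filter through the ASO_LINC libraries alone. *SIAH2*, a ubiquitin ligase that acts on the prolyl hydroxylases, was higher in all ASO_LINC libraries with a log2 fold change of 0.61 (edgeR quasi-likelihood test, adjusted p = 0.0104). *P4HTM*, a membrane-bound prolyl hydroxylase, had −0.75 (adjusted p = 0.0342) and *SIAH1* 0.52 (adjusted p = 0.145, same test). The count was 4 without ASO_LINC replicate 3 and 0 without ASO_CTRL replicate 3 or ASO_LINC replicate 1.

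In the wider family of enzymes that use oxygen and 2-oxoglutarate, 5 of 25 tested genes were called, all higher, against 4.91% of all tested genes: the collagen prolyl hydroxylases *P4HA2* and *P4HA1*, at log2 fold changes of 1.51 and 1.39, *KDM5B*, a histone demethylase, at 0.88, *JMJD6* at 0.78, and the histone demethylase *KDM3A* at 1.03. The median was 0.33, and at an unadjusted p-value below 0.05 12 were higher, against 17.1% of all tested genes. Of the called genes, *P4HA1*, *P4HA2* and *KDM3A* are also in the list of HIF targets, and both lists were chosen with results known. The count was 1 without ASO_CTRL replicate 3, 6 without ASO_LINC replicate 3 and 2 when any 1 of the other 4 libraries was left out.

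Of the 36 HIF targets outside the sensor, 29 were called, all higher, with a median log2 fold change of 1.47, against 4.91% of all tested genes called higher. The list was chosen with results of these data known, so its direction is not independent evidence. Its smallest p-values were those of *ANGPTL4*, a secreted inhibitor of lipoprotein lipase, at 4.93, *NDRG1* at 3.53, the glucose transporter *SLC2A3* at 2.82, and *VEGFA* at 2.17. *EGLN3*, at 2.51, lay above the median of this list, and *EGLN1*, at 0.51, below it. The 7 targets not called had values from −0.10 for *ENO1* to 1.37 for *ALDOA*.

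**Figure D5:**
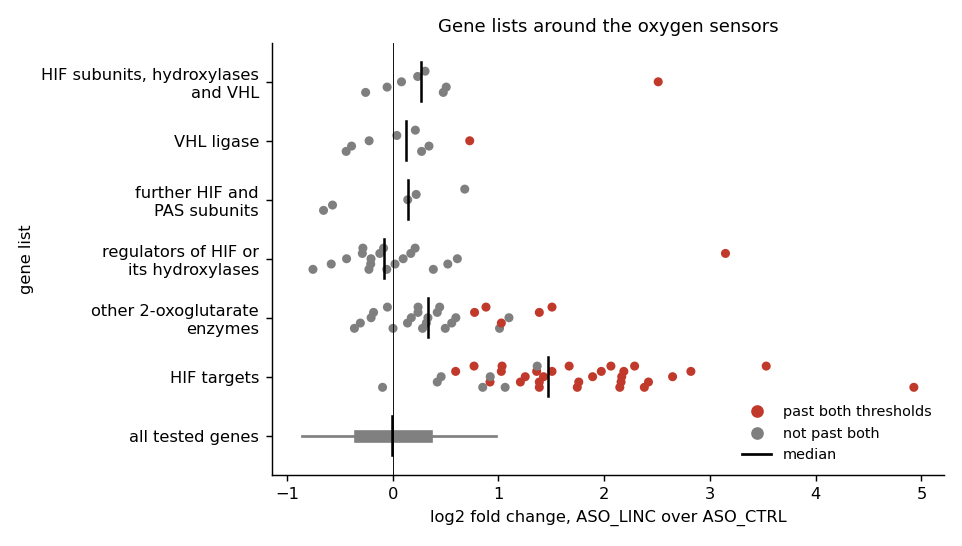
Log2 fold change (x axis) of each tested gene in 6 lists (y axis), red where past both thresholds, with a black line at the median, and for all 14660 genes the 5th to 95th percentile (thin line, −0.86 to 0.98) and the middle part from the 25th to the 75th (thick line). The HIF targets have a median of 1.47, and the medians of the other lists lie between −0.09 and 0.33.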

How the data were processed

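RNA-seq libraries of H226 cells, 3 transfected with ASO_CTRL and 3 with ASO_LINC#3, were sequenced as single reads of 75 bp, which the authors aligned to hg19 with STAR. They deposited raw read counts per gene name, 1 column per library, without normalization. Counting tool, annotation and strand setting are not given in the sources used here. The 4 totals of reads assigned to no gene, 24.8% to 28.1% of a library, were left out.

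In R 4.3.3, counts were filtered with filterByExpr of edgeR 4.0.16 (14660 genes kept), scaled by TMM and compared with the quasi-likelihood F-test without a replicate block, with Benjamini-Hochberg adjustment over all tested genes. The thresholds, 0.01 for the adjusted p-value and 0.5 for the size of the log2 fold change, follow the study's methods. Standard errors are the log2 fold change divided by the square root of F, and 95% intervals use the t quantile of the fit's total degrees of freedom. Log2 CPM used a prior count of 2. Every pair of libraries of a condition differed by more than sampling noise, a spread that may be technical. Each library was entered as 1 replicate. The genes, lists and tests were chosen with earlier results of these data known. The rule names the 8 genes, the 4 genes with the smallest p-value in each further list, the 3 genes nearest to a called gene and the markers. The called *KDM3A*, *ENO1*, *ALDOA*, *NDUFB8* and the further antisense genes were named after their values were seen. Alternatives were other scalings, DESeq2 1.42.0, limma-voom (limma 3.58.1), other filters, an adjusted p-value of 0.05, a replicate block and leaving out each library. Offsets for GC content and transcript length, known for 87.2% of the tested genes, were added after seeing the data. Positions, exonic lengths and overlaps come from GENCODE lifted to GRCh37, whose release may not be the one the authors used, and promoter windows from RefSeq.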

Additional observations from a re-analysis of the deposited data

How the results depend on the processing

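*EGLN3* stayed past both thresholds in all 15 alternatives in which it was tested, with log2 fold changes from 2.36 to 2.59. It had entered the main fit through the ASO_LINC libraries alone, so these calls are a description. *EGLN2*, *HIF1AN* and *VHL* kept their direction and were called in none of their 16 alternatives. At an adjusted p-value of 0.05 *EGLN1* was also called, so that 2 of the 8 genes passed, and the counts were 2465 over the whole table, 3 for the paralogs of the HIF subunits, 3 for the regulators and 9 for the 2-oxoglutarate enzymes. With at least 10 reads in every library 0 of the 8 genes and 0 regulators were called, since *EGLN3* and *HIF1A-AS2* were then not tested. DESeq2 called 1 paralog and 2 regulators, and limma-voom and the fit without a filter called 2 regulators each. Offsets for GC content and transcript length gave 1722 genes in all, 1 paralog and 3 regulators, and with the replicate block added 0 genes of the VHL list and 2 regulators. With the replicate block alone the counts were 656 genes in all, 0 of the VHL list and 2 of the 2-oxoglutarate enzymes, and *EGLN3* remained called (edgeR quasi-likelihood test, adjusted p = 0.000639). The replicate numbers were not taken to pair the samples. Across genes, the deviations of same-numbered libraries from their condition means had correlations of 0.059, −0.149 and −0.180. Those of differently numbered libraries ran from −0.142 to 0.194. With so few libraries per condition this check cannot exclude a shared batch, so the counts with a replicate block are given as well.

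Fits without 1 library gave 359 to 2616 genes over the table, 1 to 3 of the 8 genes, 0 to 3 of the VHL list, 0 to 1 paralogs, 0 to 4 regulators, 1 to 6 of the 2-oxoglutarate enzymes and 25 to 31 HIF targets. In these fits the log2 fold change of *HIF1A* ran from −0.23 to 0.19, turning positive at 0.191 and 0.068, and that of *ARNT* from −0.044 to 0.205. The differences in log2 ratio ran from 1.88 to 2.13 for *EGLN3* to *EGLN2*, 1.65 to 1.89 for *EGLN3* to *EGLN1*, 0.03 to 0.46 for *EGLN1* to *EGLN2* and 0.27 to 0.69 for *EPAS1* to *HIF1A*, and with a prior count of 0.5 in place of 2 they were 2.14, 1.95, 0.195 and 0.516 in the same order. The cause of these differences between settings was not tested. The number of genes tested also differed in fits with fewer libraries or other filters. With 9 to 57 reads per library, *EGLN3* and *ARNT* have the least precise values of the 8 genes.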
